A study of Mus musculus with 6 samples.

Results

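The genes described here encode the fibulins, elastin and the emilins, a set of 10 genes chosen by name (Efemp1, Efemp2, Fbln1, Fbln2, Fbln5, Fbln7, Hmcn1, Eln, Emilin1 and Emilin2) out of 55536 in the count matrix. All 10 were found by their symbols in the GENCODE M21 annotation, and all 10 passed the filter on low counts that left 15712 genes to test. RNA was sequenced from the perichondrium, a fibrous layer around growing cartilage, of the limb bones of mice on postnatal day 4. The 3 knockout libraries (mut-596, mut-597 and mut-795) came from Fbn1Scx-/- mice. The name of that genotype points to deletion of the fibrillin-1 gene Fbn1 by a Cre recombinase under Scx control. The title of mut-596 holds ScxCRE, and those of mut-597 and mut-795 hold Koscx. The other 3 libraries (WT-596, WT-597 and WT-795) came from wild-type mice of the same age. Values of a group's libraries are given in these orders. Scx encodes scleraxis, a transcription factor of tendon and ligament, so cells of the perichondrium without a history of Scx activity would keep Fbn1. Whether the wild types carried the Cre or an unrecombined allele is not stated, nor is what the numbers in the library names stand for. No label states that the libraries are from different animals. Ddx3y, a gene of the Y chromosome, had 1641 counts in mut-795 and 0 in mut-596 and mut-597, so mut-795 came from another animal than these. For the other libraries the counts used here do not settle it. The p-values here therefore reflect only library-to-library spread, part of which may be technical.

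Elastic fibres form when tropoelastin, the soluble product of Eln, is laid down on a scaffold of fibrillin microfibrils and cross-linked by lysyl oxidases. Short fibulins bridge these parts: fibulin-4 brings lysyl oxidase to tropoelastin, fibulin-5 carries tropoelastin to microfibrils and binds integrins, and fibulin-3 is a related glycoprotein that binds the protease inhibitor TIMP3. Emilin-1 sits where elastin meets the microfibrils and also restrains the processing of the TGFβ precursor, which ties it to the growth factor pathway named in the series title. The comparison asked how the transcripts of these fibrillin partners differ in perichondrium when fibrillin-1 is lost.

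No member of the set passed the edgeR quasi-likelihood test at a Benjamini-Hochberg adjusted p of 0.05, a threshold that 1 of all 15712 genes, Fbn1 itself, passed (0.00636%). The member that stood furthest apart was Efemp1, the gene of fibulin-3, which was at 2.73 times its wild-type level and was higher in each knockout library than in any wild-type library. Emilin1 was the next by p, at a lower level in knockout, and Eln and Fbln1 also had lower means with groups that overlapped. The other 6 members, Efemp2, Fbln2, Fbln5, Fbln7, Hmcn1 and Emilin2, had log2 fold changes between -0.40 and 0.20. In all, 6 of the 10 members lay below 0 and 4 above, with a median log2 fold change of -0.10 beside 0.01 for all genes tested; corrected for GC content the members' median was 0.03. At an unadjusted p under 0.05, 2 of 10 members differed, beside 10.5% of all genes tested, and the groups did not overlap for 1 of 10, beside 11.9% of all genes tested (5.66% with knockout above and 6.22% with knockout below). With a correction for transcript GC content, 1 of 10 members had an unadjusted p under 0.05, beside 6.03% of all genes tested. In bulk tissue, fewer cells that express a gene and less of its RNA per cell cannot be told apart.

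**Figure D1:**
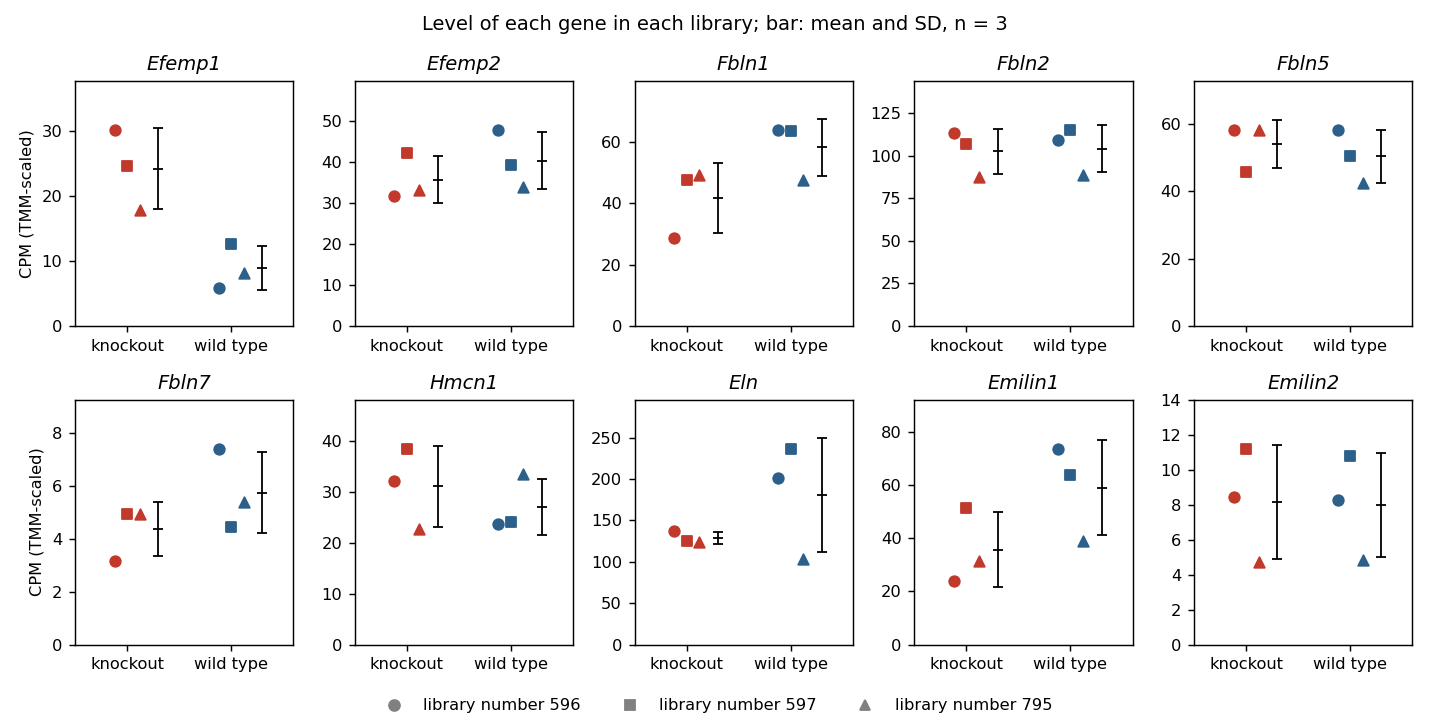
Level of each of the 10 genes in CPM (counts divided by the TMM-scaled library size) in each library, with 3 knockout libraries at the left and 3 wild-type libraries at the right of each panel; marker shapes give the library number and bars the mean and SD. Efemp1 lies between 17.8 and 30.2 CPM in knockout libraries and between 5.89 and 12.6 CPM in wild-type libraries, and it is the one panel in which the groups do not overlap.

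The depth and makeup of the libraries touch every value below. Total counts lay between 7209217 and 10316017 per library, and the 10 genes together took between 0.0434% and 0.0461% of them in knockout libraries and between 0.0367% and 0.0697% in wild-type libraries. Fbn1 had 76, 45 and 69 counts in the knockout libraries, against 1255, 898 and 458 counts in the wild-type libraries, which matches the labels. Xist, transcribed from the inactive X chromosome of females, reached 6221 counts in mut-596 and 4024 in mut-597 but at most 4 elsewhere, so sex and genotype are partly confounded. Fold changes were lower for genes with a higher transcript GC content (Spearman rho = -0.619 across 15701 genes, which are no replicates of each other), and 7 of the 10 members have a GC content above the median of 49.1%. WT-795 was the lowest wild-type library for 7 of the 10 members and lay inside the knockout range for 6. WT-596 was the lowest for 2 and inside that range for 4, and WT-597 was the lowest for 1 and inside for 5. No such count was made over all genes tested. All 8 markers of perichondrium and other fibroblasts were detected in every library, and they are shared with fibroblasts elsewhere in the limb. Their sums were 17900 to 19900 CPM in knockout libraries and 18900 to 24100 CPM in wild type. These sums weigh the most abundant genes, such as Col1a1, which reached 13000 CPM in WT-597. By gene, 6 of the 8 had a log2 fold change above 0 and 2 below, with a median of 0.13. Skeletal muscle markers, 9 of 9 detected in every library, summed to 1700 to 3840 CPM in knockout libraries and 2580 to 9180 CPM in wild type. The 6 Schwann cell and myelin markers summed to 33.3 to 77.3 CPM in knockout libraries and 18.0 to 38.1 CPM in wild type.

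The pair of members with the smallest p, which differed in opposite directions, is shown with its promoter windows from RefSeq on GRCm38.p6, each running from 250 bases before to 50 bases after an annotated start. Capitals mark matches, on either strand, to 4 motifs that do not overlap each other here. The SMAD box, bound by the transcription factors of TGFβ signalling, was searched as CAGAC. The GC box was searched as GGGCGG. For the TATA box the letters were TATAAA. The AP-1 site was taken as TGANTCA. The Efemp1 window is chr11:28852955-28853254 on the plus strand, and the Emilin1 window is chr5:30913536-30913835 on the plus strand, inside the GENCODE M21 gene.
Efemp1: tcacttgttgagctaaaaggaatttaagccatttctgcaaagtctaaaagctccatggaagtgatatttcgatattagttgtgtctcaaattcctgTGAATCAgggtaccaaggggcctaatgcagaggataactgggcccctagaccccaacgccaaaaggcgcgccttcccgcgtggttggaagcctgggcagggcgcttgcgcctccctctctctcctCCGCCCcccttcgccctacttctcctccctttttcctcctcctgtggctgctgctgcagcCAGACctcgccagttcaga
Emilin1: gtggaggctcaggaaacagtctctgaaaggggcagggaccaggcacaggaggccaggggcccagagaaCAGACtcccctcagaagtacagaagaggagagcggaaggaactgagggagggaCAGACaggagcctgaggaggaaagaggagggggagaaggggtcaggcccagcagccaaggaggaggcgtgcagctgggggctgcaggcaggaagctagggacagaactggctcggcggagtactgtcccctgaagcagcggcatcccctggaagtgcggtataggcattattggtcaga
The Efemp1 window holds 1 SMAD box, 1 GC box and 1 AP-1 site, and the Emilin1 window holds 2 SMAD boxes. Among all 32851 promoter windows of the table, 49.6% hold a SMAD box, 35.7% a GC box, 13.6% a TATA box and 7.81% an AP-1 site. Of the 14 windows of 9 members, 9 hold a SMAD box, 8 a GC box, 1 an AP-1 site and 0 a TATA box. Windows of the same gene overlap for Efemp2 and Fbln1, so some matches are counted in more than 1 window. No window was at hand for Eln. The base composition of the Efemp1 window, 54.3% GC, is lower than that of the Emilin1 window, 61.7%. A match is a description of the letters only.

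Efemp1 (ENSMUSG00000020467) lies on the plus strand of chromosome 11 from 28853204 to 28926743 in GRCm38. It had 229, 165 and 173 counts in the knockout libraries, against 62, 134 and 59 counts in the wild-type libraries. Scaled, it was at 30.2, 24.7 and 17.8 CPM in the knockout libraries, against 5.89, 12.6 and 8.18 CPM in the wild-type libraries. The lowest knockout library, mut-795, thus stood above the highest wild-type library, WT-597, and the highest values were those of the 2 libraries with Xist. Schwann cell and myelin markers, of which 5 of 6 had a higher mean and none was at 0, summed to 77.3, 74.2 and 33.3 CPM in the knockout libraries, against 25.8, 38.1 and 18.0 CPM in the wild-type libraries. The part of these cells and of sex in the Efemp1 values was not tested beyond the Xist fit.

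The log2 fold change of Efemp1 was 1.44 (SE 0.30, 95% interval 0.79 to 2.09), above the fold change of 99.8% of genes tested and 6th of 15712 by p, with an edgeR adjusted p of 0.459. An exact two-sided permutation test of its log2 CPM gave p = 0.1, the smallest that 3 libraries against 3 allow. DESeq2, applied to the same counts, gave Efemp1 an adjusted p of 0.0390, among 4 calls over 13496 genes (0.0296%). The authors' deposited table of 1643 genes lists Efemp1 at a log2 fold change of 1.44. That table holds far more genes than the 4 that DESeq2 called here, so a listing in it does not mean an adjusted p under 0.05. Since 1606 of its values match a DESeq2 fit of these same counts, the listing is no separate evidence. With a covariate for the libraries with Xist, a fit in which mut-795 is the sole knockout library set against wild type, its log2 fold change was 1.0 (SE 0.40, edgeR adjusted p = 0.930). Efemp1 passed the edgeR test without WT-795, where 9.08% of all genes tested passed, and without a filter on low counts, where 0.845% did.

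Ratios within a library do not depend on how libraries are scaled. The ratio of Efemp1 to Efemp2 counts was 0.954, 0.585 and 0.536 in the knockout libraries, against 0.123, 0.321 and 0.241 in the wild-type libraries. Per length, Efemp1 made up 26.1%, 20.5% and 16.7% of the summed level of the 6 genes Efemp1, Efemp2, Fbln1, Fbln2, Fbln5 and Fbln7 in the knockout libraries. Among the wild-type libraries that share was 4.99%, 10.7% and 8.81%. Both measures separated the groups without overlap, and they rest on the same Efemp1 counts as the test above. Neither was corrected for transcript GC content, which is 44.9% for Efemp1 and 54.1% for Efemp2. The part of GC content in these measures was not tested.

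The genes whose pattern over the 6 libraries was nearest to that of Efemp1 were sought among 11802 others whose mean log2 CPM was 1 or more, by the root-mean-square difference of centred log2 CPM. The 5 nearest were Ddx60, an interferon-induced helicase (0.285), the histone gene Hist1h2af (0.373), the interferon-inducible Ifi205 (0.385), the histone gene Hist1h2an (0.389) and the metalloprotease gene Adamts19 (0.390). Their log2 fold changes were 1.49, 1.05, 0.76, 1.20 and 0.98, and each had an edgeR adjusted p between 0.459 and 0.466. As the genes were chosen by likeness to Efemp1 over these same libraries, higher values in knockout follow from the choice. With the GC correction the log2 fold changes were 1.06, 1.39, 0.19, 1.53 and 0.97, in the same order. With the Xist covariate the log2 fold changes were 1.11 for Ddx60, 0.06 for Hist1h2af, 0.28 for Ifi205, -0.00057 for Hist1h2an and 0.41 for Adamts19. Both histone genes were high in mut-596 and mut-597, the libraries with Xist, and mut-795 lay inside the wild-type range for Hist1h2af and Hist1h2an. The histone genes and Ifi205 belong to families of close copies among which reads may be split, so their values are uncertain. The nearest member of the set was Hmcn1, at 0.744.

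Among the other fibulins with a role in elastin assembly, the levels in the groups overlapped. Efemp2 (ENSMUSG00000024909, chromosome 19 from 5473954 to 5482517, plus strand), the gene of fibulin-4, was at 31.7, 42.3 and 33.2 CPM in the knockout libraries, against 47.8, 39.3 and 33.9 CPM in the wild-type libraries. Both the lowest and the middle knockout library lay below every wild-type library, while mut-597 lay between the wild types. Its log2 fold change was -0.18 (SE 0.22, 95% interval -0.66 to 0.30, edgeR adjusted p = 0.727), and 0.07 with a correction for GC content. Efemp2 shares 173 exon bases with Mus81 on the opposite strand, which had 262 counts over all libraries beside 2010 for Efemp2, and without a stated strand setting such reads cannot be told apart.

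Fbln5 (ENSMUSG00000021186, chromosome 12 from 101746565 to 101819055, minus strand), the gene of fibulin-5, was at 58.1, 45.6 and 58.0 CPM in the knockout libraries, against 58.0, 50.3 and 42.5 CPM in the wild-type libraries. Fbln5 had a log2 fold change of 0.10 (SE 0.22, 95% interval -0.37 to 0.57, edgeR adjusted p = 0.846), so a rise or fall of the size seen for Efemp1 lies outside its interval. Its sign changed with the GC correction, to -0.0044.

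Fbln1 and Fbln2 encode the larger fibulins, which bind fibronectin, laminins and the proteoglycan versican and occur in basement membranes as well as elastic fibres. Fbln1 (ENSMUSG00000006369, chromosome 15 from 85205949 to 85286535, plus strand) was at 28.7, 47.4 and 49.2 CPM in the knockout libraries, against 63.8, 63.4 and 47.5 CPM in the wild-type libraries. The groups overlapped through WT-795 alone, and mut-596 was the lowest library. The log2 fold change was -0.48 (SE 0.25, 95% interval -1.01 to 0.05, edgeR adjusted p = 0.478), and -0.21 (SE 0.20) with the GC correction.

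Fbln2 (ENSMUSG00000064080, chromosome 6 from 91212455 to 91272540, plus strand) was at 113, 107 and 87.4 CPM in the knockout libraries, against 109, 115 and 88.4 CPM in the wild-type libraries. The values of the groups ran side by side, with mut-795 and WT-795 the lowest of their groups. Fbln2 had a log2 fold change of -0.02 (SE 0.22, 95% interval -0.48 to 0.44, edgeR adjusted p = 0.969), and 0.34 (SE 0.19) with the GC correction, which turned its sign.

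Fbln7 and Hmcn1 were the fibulin-related genes with the lowest levels per length, in CPM per kilobase of exon. Fbln7 (ENSMUSG00000027386, chromosome 2 from 128862981 to 128897034, plus strand), which encodes the cell adhesion protein fibulin-7, had between 24 and 48 counts in knockout libraries and between 39 and 78 counts in wild-type libraries. It was at 3.17, 4.95 and 4.94 CPM in the knockout libraries, against 7.41, 4.43 and 5.40 CPM in the wild-type libraries, and WT-597 lay inside the knockout range. Its log2 fold change of -0.40 had the widest standard error among the 6 fibulin genes compared above (SE 0.33, 95% interval -1.11 to 0.30, edgeR adjusted p = 0.594).

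Hmcn1 (ENSMUSG00000066842, chromosome 1 from 150562524 to 150993435, minus strand) encodes hemicentin-1, a very long extracellular protein of immunoglobulin-like repeats also called fibulin-6. It was at 32.2, 38.5 and 22.7 CPM in the knockout libraries, against 23.7, 24.1 and 33.4 CPM in the wild-type libraries. Mut-795 was the lowest knockout library and WT-795 the highest wild-type library. Hmcn1 had a log2 fold change of 0.20 (SE 0.25, 95% interval -0.33 to 0.74, edgeR adjusted p = 0.718), and -0.25 (SE 0.34) with the Xist covariate. Hmcn1 shares 399 exon bases with the antisense gene Gm20631, which had 25 counts over all libraries.

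**Figure D2:**
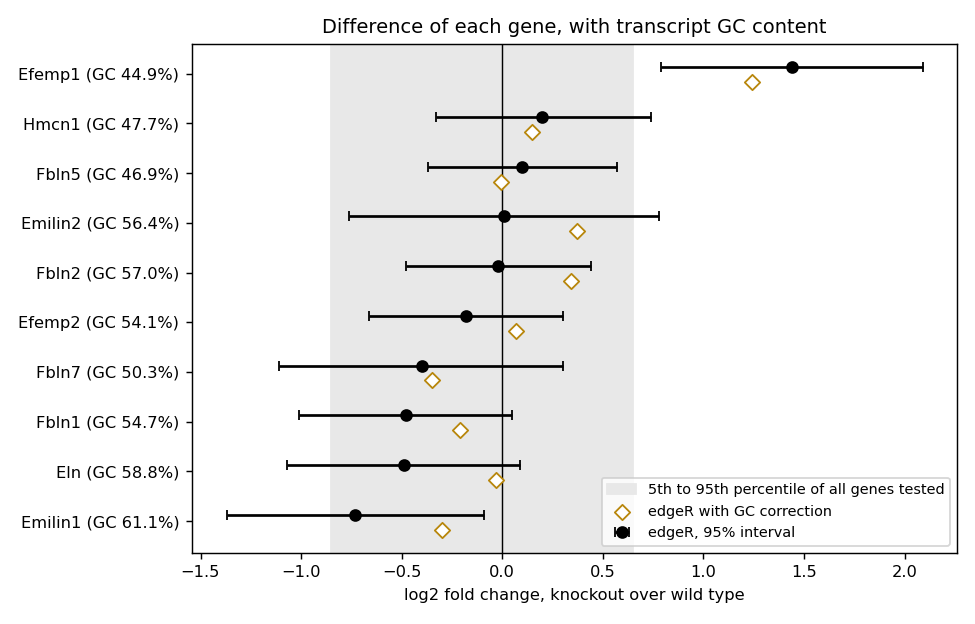
Log2 fold change of knockout over wild type for each gene, ordered by size, from edgeR with its 95% interval (black) and from edgeR with a correction for transcript GC content (open diamonds); the grey band runs from the 5th to the 95th percentile of all genes tested, -0.85 to 0.65. Efemp1, at 1.44 and 1.24 with the correction, is the one gene outside the band, while Emilin1, with the highest GC content (61.1%), is at -0.73 and at -0.30 with the correction.

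Eln (ENSMUSG00000029675, chromosome 5 from 134702593 to 134747323, minus strand), the elastin gene, split the wild-type libraries. It was at 137, 125 and 124 CPM in the knockout libraries, against 201, 237 and 104 CPM in the wild-type libraries. The mean was 129 ± 7.19 CPM in knockout libraries and 181 ± 68.8 CPM in wild-type libraries (SD, n = 3 each), and WT-795 was the lowest and WT-597 the highest of all libraries. The log2 fold change was -0.49 (SE 0.27, 95% interval -1.07 to 0.09, edgeR adjusted p = 0.487). Without WT-795 it was -0.78 (SE 0.20) and passed the test (edgeR adjusted p = 0.0289), as did 9.08% of all genes tested there. With the GC correction it was -0.03 (SE 0.21).

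The ratio of Eln to Fbln2 counts, which does not depend on scaling, was 1.21, 1.17 and 1.42 in the knockout libraries, against 1.84, 2.06 and 1.18 in the wild-type libraries. By this ratio WT-795 was inside the knockout range, whereas its Eln level in CPM lay below every knockout library. Eln shares 267 exon bases with the antisense gene Gm30003, which had 71 counts over all libraries beside 8454 for Eln.

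Emilin1 (ENSMUSG00000029163, chromosome 5 from 30913402 to 30921277, plus strand) was at 24.0, 51.4 and 31.6 CPM in the knockout libraries, against 73.9, 64.1 and 39.2 CPM in the wild-type libraries. Mut-597 stood above WT-795, and the other knockout libraries lay below every wild-type library. The mean was 35.7 ± 14.2 CPM in knockout libraries and 59.1 ± 17.9 CPM in wild type (SD, n = 3 each), 1.66-fold higher in wild type. The log2 fold change was -0.73 (SE 0.30, 95% interval -1.37 to -0.09) with an unadjusted edgeR p of 0.0275 and an edgeR adjusted p of 0.459. The authors' deposited table lists Emilin1 at -0.74, and of the 10 members it lists Efemp1 and Emilin1 only, beside 9.21% of all genes tested here. DESeq2, applied to the same counts, gave Emilin1 an adjusted p of 0.404. Without WT-795 the log2 fold change was -0.98 and passed the test (edgeR adjusted p = 0.0364), and with the GC correction it was -0.30 (SE 0.22, unadjusted p = 0.196).

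Emilin2 (ENSMUSG00000024053, chromosome 17 from 71252172 to 71311978, minus strand), a second gene with the EMI domain that names the family, was at 8.45, 11.2 and 4.73 CPM in the knockout libraries, against 8.26, 10.8 and 4.85 CPM in the wild-type libraries. Libraries with the same number had nearly the same level in both groups. Emilin2 had a log2 fold change of 0.0067 (SE 0.36, 95% interval -0.76 to 0.78, edgeR adjusted p = 0.994). The ratio of Emilin1 to Emilin2 counts was 2.84, 4.57 and 6.67 in the knockout libraries, against 8.94, 5.96 and 8.09 in the wild-type libraries, with WT-597 below mut-795.

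**Figure D3:**
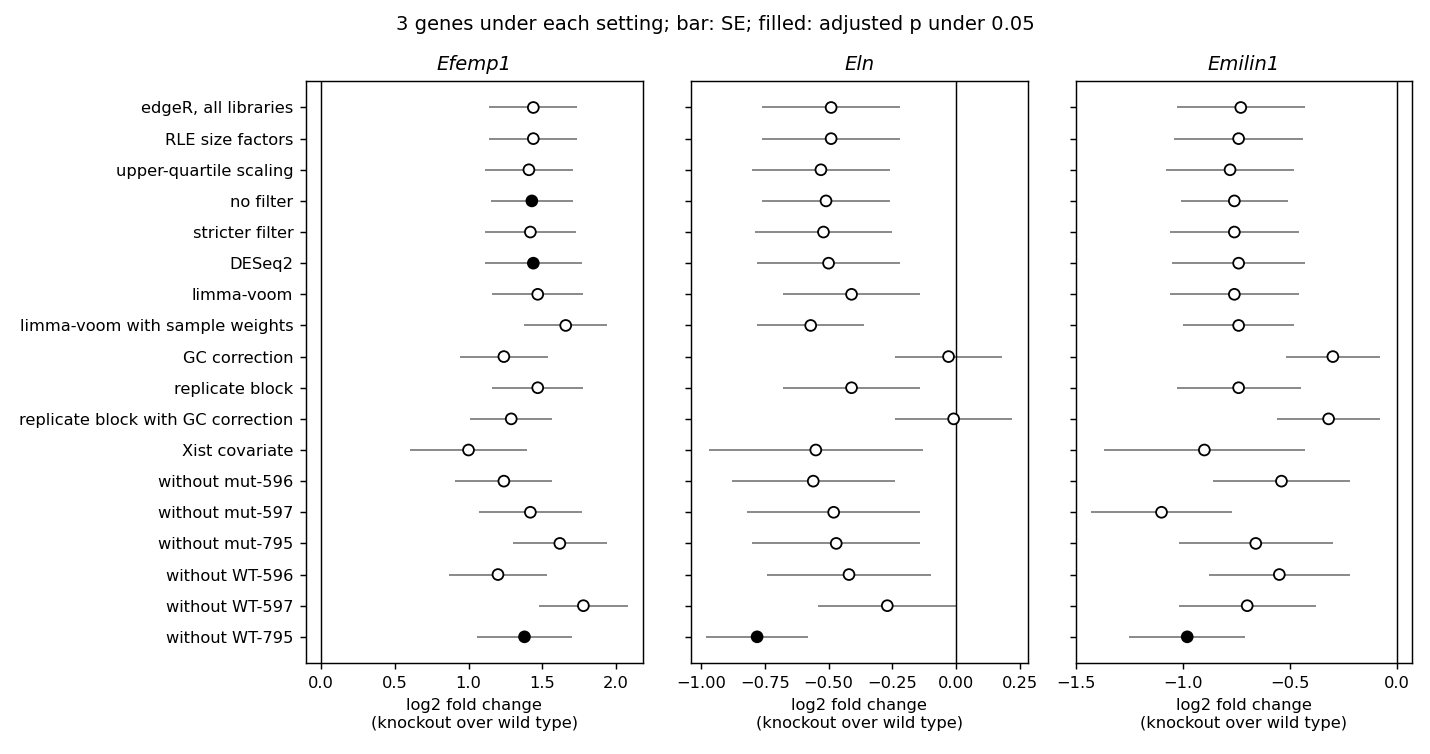
Log2 fold change of knockout over wild type of Efemp1, Eln and Emilin1 under the edgeR test on all libraries and under each other setting, with the SE as bars and filled points where the adjusted p was under 0.05. Efemp1 stays between 1.0 and 1.78; Eln reaches -0.01 and Emilin1 -0.32 with the replicate block and GC correction together, and all 3 are filled without WT-795.

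Levels of different genes were compared per length, as CPM per kilobase of exon. Over the 6 libraries Eln was highest, at 19.1 ± 6.44 CPM per kb (SD, n = 6), followed by Fbln2 at 16.2 ± 1.93, Fbln1 at 11.4 ± 2.97, Efemp2 with a range of 8.37 to 12.6, Emilin1 at 9.60 ± 3.91, Efemp1 at 8.14 ± 4.68 and Fbln5 at 7.54 ± 1.01 CPM per kb. The ranges of each of these neighbours overlapped. Fbln7, Emilin2 and Hmcn1 formed a lower tier at 1.56 ± 0.430, 1.46 ± 0.507 and 1.37 ± 0.308 CPM per kb, whose ranges also overlapped one another and lay wholly below that of Fbln5.

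The place of Efemp1 in this order differed between the groups. In knockout it had rank 3, at 11.9 ± 3.06 CPM per kb, below Fbln2 at 16.1 ± 2.11 and Eln at 15.9 ± 0.888 CPM per kb, with a range that overlapped that of Fbln1 (9.56 ± 2.60 CPM per kb; SD, n = 3 each). In wild type it had rank 7, at 4.37 ± 1.69 CPM per kb, below Fbln5 at 7.28 ± 1.12 CPM per kb in all 3 libraries though their ranges overlapped, and above Fbln7 at 1.78 ± 0.470 CPM per kb (SD, n = 3 each). Emilin1 had rank 7 in knockout, at 7.23 ± 2.87 CPM per kb, and rank 4 in wild type, at 12.0 ± 3.62 CPM per kb (SD, n = 3 each). These ranks restate the differences above on another scale and were not tested.

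**Figure D4:**
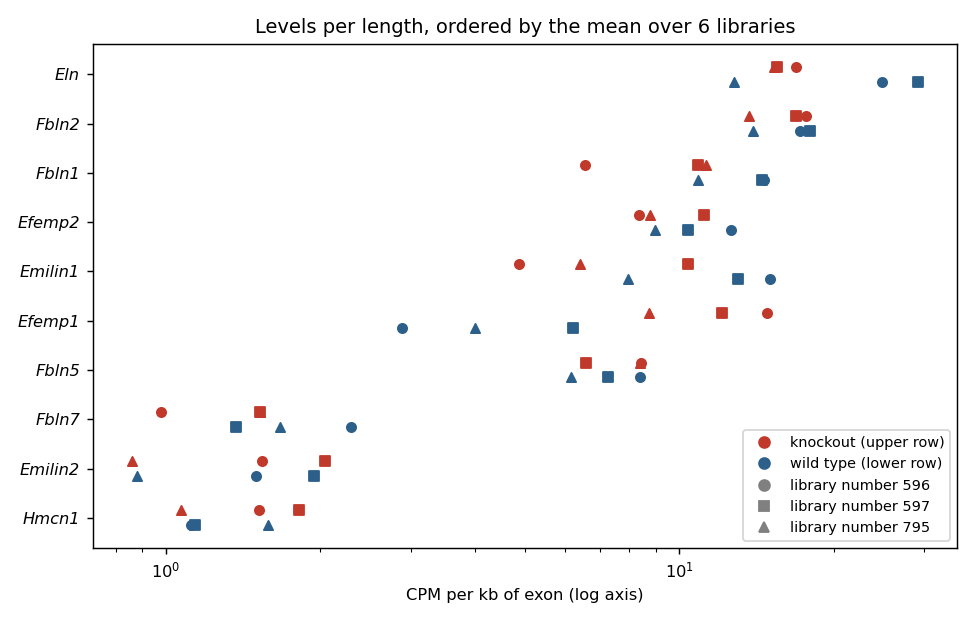
CPM per kilobase of exon (log axis) for each gene in each library, knockout in the upper and wild type in the lower row of each gene, ordered by the mean over 6 libraries. Efemp1 runs from 2.89 to 14.8 CPM per kb with its groups apart, and Fbln7, Emilin2 and Hmcn1 lie between 0.86 and 2.30 CPM per kb.

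Partner genes of the elastic fibre were described from 6 lists with 57 genes, of which 55 were tested. Fbn1 fell (log2 fold change -3.48, edgeR adjusted p = 1.03e-04) and no other partner passed. At an unadjusted p under 0.05, 20 partners were lower and 2 higher in knockout, beside 7.12% lower and 3.37% higher of all genes tested, and the median over the 55 was -0.34. With the GC correction 8 of the 55 had an unadjusted p under 0.05, beside 6.03% of all genes tested. Tendon markers, of the cell type in which Scx is active, had lower means for 5 of 6 genes, with none at 0. They summed to 560 to 679 CPM in knockout libraries, against 681 to 919 CPM in wild-type libraries, so the groups were barely apart. Fmod was at 221, 246 and 228 CPM in the knockout libraries, against 531, 335 and 277 CPM in the wild-type libraries. Thbs4 also separated the groups, narrowly, while Scx, Tnmd, Mkx and Kera overlapped, and Kera had its higher mean in knockout. The means of Tnmd and Mkx were nearly equal, so the count of lower means does not show a drop across the list. Tnmd was at 189, 187 and 284 CPM in the knockout libraries, against 217, 172 and 273 CPM in the wild-type libraries. The sums without Fmod were not compared. Skeletal muscle markers had lower means for 9 of 9 genes, but each of these genes was highest in WT-597. Their sums overlapped, at 1700, 3840 and 3720 CPM in the knockout libraries, against 3840, 9180 and 2580 CPM in the wild-type libraries. How far the lower means rest on WT-597 was not tested. The part of either cell type in the partner values was not tested.

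The microfibril list, the scaffold on which fibulins and elastin assemble, had 8 of 11 tested genes below 0 and a median of -0.63, or -0.30 with the GC correction. After Fbn1 the smallest p were those of Ltbp4, a latent TGFβ binding protein that also takes part in elastic fibre assembly through fibulin-5, and Adamtsl4, a microfibril-associated protein. Ltbp4 was at 10.3, 23.4 and 15.3 CPM in the knockout libraries, against 44.8, 49.9 and 17.6 CPM in the wild-type libraries, with WT-795 inside the knockout range (log2 fold change -1.21, SE 0.36). Adamtsl4 was at -0.94 (SE 0.30), and both had an edgeR adjusted p of 0.459.

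Of the EMI-domain and hemicentin relatives, 5 of 6 lay below 0 with a median of -0.61, or -0.25 with the GC correction. Col26a1, a collagen with an EMI domain, was at 4.91 ± 1.51 CPM in knockout libraries and 11.4 ± 5.21 CPM in wild type (SD, n = 3 each), a log2 fold change of -1.23. Emilin3 was at -0.71 and the endothelial multimerin gene Mmrn2 at -0.55. None of these passed (edgeR adjusted p between 0.459 and 0.475).

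The elastin cross-linking list had 4 of 7 genes below 0 and a median of -0.29, or -0.07 with the GC correction. Bmp1, whose protease activates lysyl oxidase, was at -0.70 (SE 0.27), Loxl1, the lysyl oxidase relative that binds fibulin-5, at -0.55 (SE 0.23), and Loxl4 at -0.54 (SE 0.40). Of these, Bmp1 and Loxl1 had an unadjusted p under 0.05 and both had an edgeR adjusted p of 0.459.

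Cell receptors had 8 of 11 genes below 0 and a median of -0.49, or -0.32 with the GC correction. Itga5, a fibronectin receptor chain, was at 5.28, 9.15 and 5.45 CPM in the knockout libraries, against 15.7, 26.7 and 9.70 CPM in the wild-type libraries, with no overlap (log2 fold change -1.41, SE 0.36, edgeR adjusted p = 0.459). Lgals3, an elastin-binding lectin gene, and Ctsa, which encodes a subunit of the elastin receptor complex, were each at -0.67.

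Proteases and their inhibitor split evenly, with 5 of 10 tested genes on each side of 0 and a median of 0.00, or -0.05 with the GC correction. Mmp2, a gelatinase that also cuts elastin, was at -1.23 (SE 0.31), Mmp9 at -0.52 (SE 0.27) and Adamts5, an aggrecanase gene, at 0.77 (SE 0.26), with edgeR adjusted p between 0.459 and 0.480. Matrix binding partners had 7 of 10 genes below 0 and a median of -0.16, with the small proteoglycan gene Bgn at -0.82, Ecm1, whose protein binds fibulin-1, at -0.87, and the perlecan gene Hspg2 at -0.58.

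**Figure D5:**
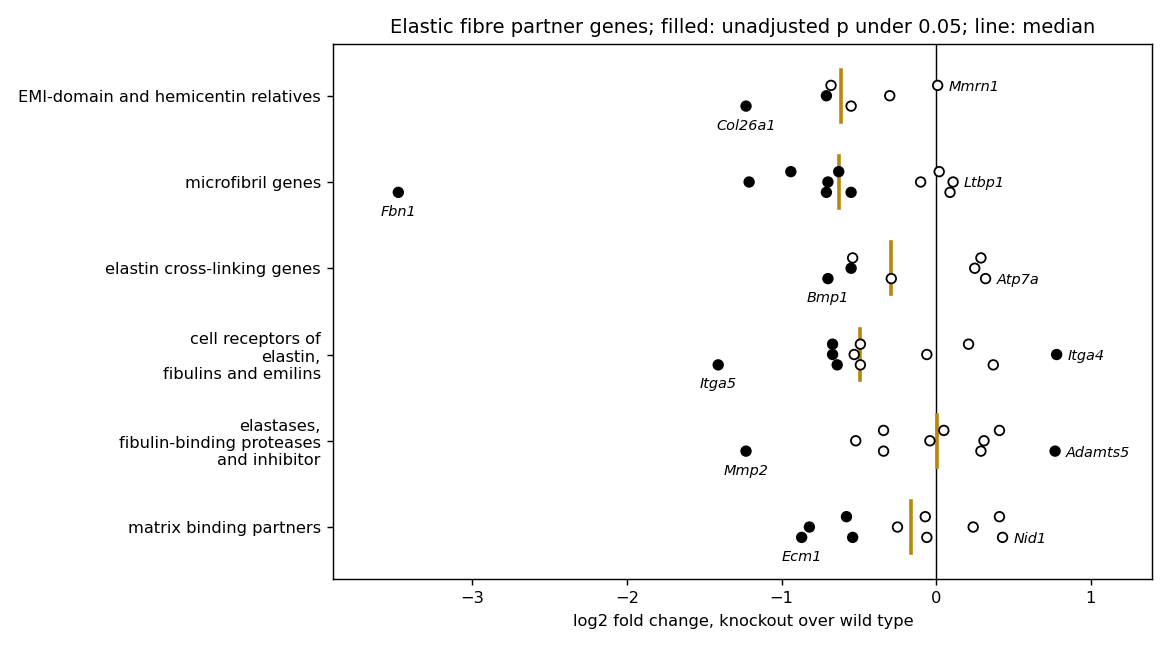
Log2 fold change of knockout over wild type of the 55 tested partner genes in 6 lists, filled where the unadjusted p was under 0.05, with the list median as a line. Fbn1 stands at -3.48, and list medians run from -0.63 for microfibril genes to 0.00 for proteases and their inhibitor.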

How the data were processed

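The authors' deposited matrix holds whole-number counts per Ensembl gene, not normalized, for 6 libraries. Libraries were made with Smart-seqV4 and NexteraXT after a RNeasy micro extraction, per the labels' protocols, which name no molecular identifiers. GRCm38.p6 and DESeq2 are named in the submitters' processing notes. Names within the deposited data hold star and Feature_counts, which point to STAR as the aligner and featureCounts as the counter. No strand setting was found for the counting. A second table, also deposited by the authors, has 1643 genes with log2 fold changes, of which 1606 matched a DESeq2 fit within 1e-04.

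Counts were tested with edgeR 4.0.16 (glmQLFTest; TMM; filterByExpr; no covariate) in R 4.3.3, two-sided, with Benjamini-Hochberg adjustment over 15712 genes. Named genes are all members, Fbn1, the 5 genes nearest to Efemp1 and overlapping genes. The SE is the log2 fold change over the square root of F. CPM is TMM-scaled, and log2 CPM used a prior count of 2. Symbols, positions, exon length and the GC content of the longest transcript came from GENCODE M21. The GC correction took per-library loess curves (span 0.5) as offsets. Alternatives used DESeq2 1.42.0 and limma 3.58.1. The procedure was tested on simulated data. Members and lists were chosen with earlier results of these data known; partner genes named are the 3 with the smallest p per list.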

Additional observations from a re-analysis of the deposited data

How the results depend on the processing

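With edgeR on all libraries 1 gene passed, 0 of the 10 members passed, 2 members and 22 partner genes had an unadjusted p under 0.05, and the median over members was -0.10. RLE and upper-quartile scaling, the stricter filter and limma-voom kept these counts within 1.5 times, and the reasons for the shifts below were not tested. Without a filter 270 genes and 1 member passed and 4 members had an unadjusted p under 0.05; Efemp1 was called at 1.43 (edgeR adjusted p = 2.5e-04). DESeq2 called 4 genes and 1 member, Efemp1 at 1.44. Sample weights in limma-voom gave 4 members under unadjusted 0.05, and called 0 members. The GC correction gave 1 member and 8 partners under unadjusted 0.05. The Xist covariate called 0 genes, with Fbn1 at -3.65 (SE 0.49, edgeR adjusted p = 0.104) beside -3.48 without it, and gave 1 member and 8 partners under unadjusted 0.05.

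Leaving out 1 library gave 1 to 1517 genes and 0 to 3 members past the threshold, 1 to 4 members and 10 to 31 partners under unadjusted 0.05, and medians of -0.31 to -0.02. The 1517 genes and 3 members (Efemp1, Eln and Emilin1) came without WT-795. Log2 fold changes ran from 1.20 to 1.78 for Efemp1, -0.78 to -0.27 for Eln, -1.10 to -0.54 for Emilin1, -0.14 to 0.07 for Fbln2, -0.03 to 0.21 for Fbln5 and -0.30 to 0.28 for Emilin2.

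Signs turned for members near 0. Emilin2 was at -0.03 with upper-quartile scaling, -0.01 without a filter, -0.02 with the stricter filter, -0.07 with limma-voom and -0.76 with the Xist covariate. Fbln5 was at -0.07 with sample weights and -0.0044 with the GC correction, which put Efemp2 at 0.07 and Fbln2 at 0.34. Hmcn1 was at -0.25 and Hist1h2an at -0.00057 with the Xist covariate. No sign turned for Efemp1, Fbln1, Fbln7, Eln or Emilin1 in any of the 17 alternatives.

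The library names share numbers between groups. The deviations of same-numbered libraries from their group means correlated at -0.177, 0.244 and -0.202. Those of differently numbered libraries correlated at -0.287 to 0.380. Deviations within a group of 3 libraries are tied to each other, so these values neither show nor exclude a pairing. With a replicate block 1 gene and 0 members passed and the median was -0.10. With the replicate block and the GC correction 4 genes passed the adjusted threshold, 1 member and 6 partners had an unadjusted p under 0.05, and the values were Efemp2 at 0.07 and Fbln2 at 0.33. Fbln7, with 24 to 78 counts per library, and Emilin2, with 35 to 114, had the fewest counts of the members and the largest SEs, 0.33 and 0.36.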
